A study of Mus musculus with 7 samples.

Results

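The 9 genes Gnat1, Gnb1, Gngt1, Pde6a, Pde6b, Pde6g, Cnga1, Cngb1 and Sag encode the proteins that pass the light signal through the rod outer segment and the arrestin that ends it. They were chosen by name, and every H3K18La peak that the deposited annotation gives to 1 of these symbols was taken, which came to 62 of the 108253 peaks of the series. The authors merged the peaks called at each age, so a peak could enter the series through 1 age alone. H3K18La is lactylation of lysine 18 on histone H3, and it was mapped by CUT&Tag, an assay in which an antibody brings an enzyme to the marked chromatin so that the DNA beside the mark can be sequenced. The retinas came from C57Bl/6J mice of postnatal day 4 (P4, 2 libraries), day 10 (P10, 2 libraries) and day 28 (P28, 3 libraries), with no treatment and no other genotype, and were dissociated with papain before the assay. The study's methods call the libraries of an age biological replicates, while the labels do not say whether they came from separate animals, so the p-values given here measure the spread between these libraries. P28 replicate 1 was the only library labelled batch 2. Whole retina was used, so more rods and more mark in each rod cannot be told apart in any of these values.

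In darkness cyclic GMP keeps the rod channel open. Light-activated visual pigment switches on the G protein transducin, transducin frees the catalytic subunits of phosphodiesterase 6 from their inhibitory gamma subunit, cyclic GMP is broken down and the channel closes. Arrestin then binds the pigment and stops the signal. Mouse rods are produced mostly around birth and build their outer segments over the weeks that follow.

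The DNA at the start sites of 5 of the genes is shown first, because the promoter peaks or, for Gnb1, a further peak at the start site cover these bases and because Gnb1 differs from the other 4 in base composition. Each sequence holds 250 bases before and 50 bases from the RefSeq start site (GRCm38.p6), read 5′ to 3′ on the strand of the gene. Capitals mark matches, on either strand, to TAATCC (the core bound by the photoreceptor factor CRX and by OTX2, which reads GGATTA on the other strand), TGCTGA (a partial site of the rod factor NRL, TCAGCA on the other strand), GGGCGG (the GC box, CCGCCC on the other strand) and TATAAA (the TATA box, TTTATA on the other strand). Gnb1 is at chr4:155491111-155491410 on the plus strand, Gngt1 at chr6:3993758-3994057 on the plus strand, Pde6b at chr5:108388123-108388422 on the plus strand, Cngb1 at chr8:95306536-95306835 on the minus strand and Sag at chr1:87803430-87803729 on the plus strand.
Gnb1: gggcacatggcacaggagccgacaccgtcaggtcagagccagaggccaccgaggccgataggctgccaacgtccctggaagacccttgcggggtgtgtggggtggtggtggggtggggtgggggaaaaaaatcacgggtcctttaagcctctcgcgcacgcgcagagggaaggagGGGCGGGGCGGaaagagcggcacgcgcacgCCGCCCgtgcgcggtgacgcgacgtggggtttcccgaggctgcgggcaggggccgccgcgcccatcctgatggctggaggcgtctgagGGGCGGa
Gngt1: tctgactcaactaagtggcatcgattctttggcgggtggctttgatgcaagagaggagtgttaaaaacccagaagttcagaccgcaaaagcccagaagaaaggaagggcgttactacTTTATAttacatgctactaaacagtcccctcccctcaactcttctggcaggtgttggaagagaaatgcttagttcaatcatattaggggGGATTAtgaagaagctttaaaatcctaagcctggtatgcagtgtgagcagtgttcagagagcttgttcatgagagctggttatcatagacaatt
Pde6b: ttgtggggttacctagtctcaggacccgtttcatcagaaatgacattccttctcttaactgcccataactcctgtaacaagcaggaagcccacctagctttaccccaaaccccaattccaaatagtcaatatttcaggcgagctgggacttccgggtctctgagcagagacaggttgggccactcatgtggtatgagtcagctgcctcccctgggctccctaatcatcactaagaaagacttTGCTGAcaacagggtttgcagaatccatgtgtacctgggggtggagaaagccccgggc
Cngb1: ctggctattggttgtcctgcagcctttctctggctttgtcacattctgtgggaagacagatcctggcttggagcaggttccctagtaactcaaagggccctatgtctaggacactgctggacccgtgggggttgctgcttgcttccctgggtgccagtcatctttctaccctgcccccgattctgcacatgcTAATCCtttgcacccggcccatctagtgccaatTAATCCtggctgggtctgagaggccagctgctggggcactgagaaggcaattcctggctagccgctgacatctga
Sag: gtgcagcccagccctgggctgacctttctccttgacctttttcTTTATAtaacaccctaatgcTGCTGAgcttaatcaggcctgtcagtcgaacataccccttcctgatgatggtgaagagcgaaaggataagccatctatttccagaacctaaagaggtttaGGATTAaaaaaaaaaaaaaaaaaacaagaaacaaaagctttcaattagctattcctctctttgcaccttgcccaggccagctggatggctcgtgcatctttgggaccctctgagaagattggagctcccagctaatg

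RefSeq windows were matched for 6 of the 9 genes, and Gnat1, Pde6a and Pde6g were not matched. TAATCC was found in 4 of the 6 (Gngt1, Cnga1, Cngb1 and Sag) and in 7.06% of all 32851 RefSeq windows. Counted from the start base, the match began at -44 in Gngt1, at -87 in Sag, and at -58 and -25 in Cngb1. TGCTGA was found in Pde6b and Sag and in 19.48% of all windows. TATAAA was found in Gngt1 and Sag and in 13.62% of all windows. Both matches were on the other strand, as TTTATA, and began at -133 in Gngt1 and -207 in Sag, so they do not show a working TATA box. The GC box was found only in Gnb1 among the 6, at 4 positions of which the leading pair overlap, and in 35.66% of all windows. Gnb1 also had the highest GC content of the 6, at 70.3%, and a CpG observed over expected ratio of 0.88, against ratios of 0.17 to 0.32 in the other 5. Cnga1, whose window lies 454 bases outside its H3K18La promoter peak, had TAATCC at -228 and is not printed. These matches describe letters and do not show that a factor was bound.

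Depth differed between the libraries, and the lowest depth set the precision at P4 and P10. RPKM, here reads per kilobase of peak scaled to the authors' normalised library size, could be turned back into whole reads for 100% of the values. Reads in peaks came to 358971 and 295383 at P4, to 199970 and 660740 at P10, and to between 1615969 and 8274373 at P28. At a peak of median width, 3 reads were worth 7.15 RPKM in P10 replicate 1 and 0.244 RPKM in P28 replicate 2, and intervals on reads given here cover counting error only. Reads in peaks made up 16.3% and 17.6% of the normalised library size at P4, 36.1% and 52.1% at P10, and 42.4% to 57.1% at P28. The size of every change therefore rests on the scaling. When each library was scaled to its reads in peaks, the median change of all peaks from P4 to P28 moved by -0.97 on the log2 scale, the share of calls that were higher at P28 moved from 81.8% to 31.9%, and the median over the 9 promoter peaks moved from 2.5 to 1.26. Measured against the median of all promoter peaks, the median over the 9 stood 1.14 above it as deposited, 0.96 above it scaled to reads in peaks, 1.14 above it after median centring and 1.20 above it after quantile normalization.

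All 9 genes had a promoter peak, meaning a peak that the annotation places within -1000 to 500 bases of a start site, and no start of another protein-coding gene lay inside any of the 9. For each gene the promoter peak nearest a start site was used. Gnb1 and Cngb1 each have 2 promoter peaks that both overlap a start, and there the one with the higher mean over the 7 libraries was used. That mean is taken from the tested values and mostly from P10 and P28 libraries, so the choice leans to peaks that are higher at those ages. Of the peaks not used, that of Gnb1 was called higher only from P4 to P28 and that of Cngb1 only from P4 to P10. The counts of 9 below depend on this choice. The level of H3K18La at these 9 peaks was lower at P4 than at P10 and P28, and the P10 mean was 78.5% to 126% of the P28 mean for every gene but Cnga1, where it was 44.3%. Tests used limma on log2(RPKM + 1) over all 108253 peaks, with a call at an adjusted p under 0.01, and all fold changes on this scale understate the change of low peaks. From P4 to P10 limma called 9 of the 9 promoter peaks higher, beside 12.7% of the promoter peaks of all protein-coding genes, and in each of the 9 both P10 libraries lay above both P4 libraries, which held for 46.7% of promoter peaks. Their median change was 2.56 (1.69 to 3.11), beside 0.56 over all 11686 promoter peaks. From P4 to P28 limma called 9 of 9 higher, beside 34.2% of all promoter peaks, with a median of 2.5 (2.24 to 3.21) beside 1.36, and in each of the 9 the ages did not overlap, which held for 79.7% of promoter peaks. From P10 to P28 limma called 0 of 9, as it did 0.0% of all promoter peaks. At an unadjusted p under 0.05 that step held 1 of the 9, Cnga1, and 4629 of the 11686, and voom on the recovered reads also called 0 of 9. Only in Cnga1 did every P28 library lie above every P10 library, which held for 54.4% of promoter peaks. The median change in that step was 0.10, beside 0.73 over all promoter peaks, and relative to all promoter peaks it was negative under each of the 4 scalings, from -0.63 to -0.39.

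**Figure D1:**
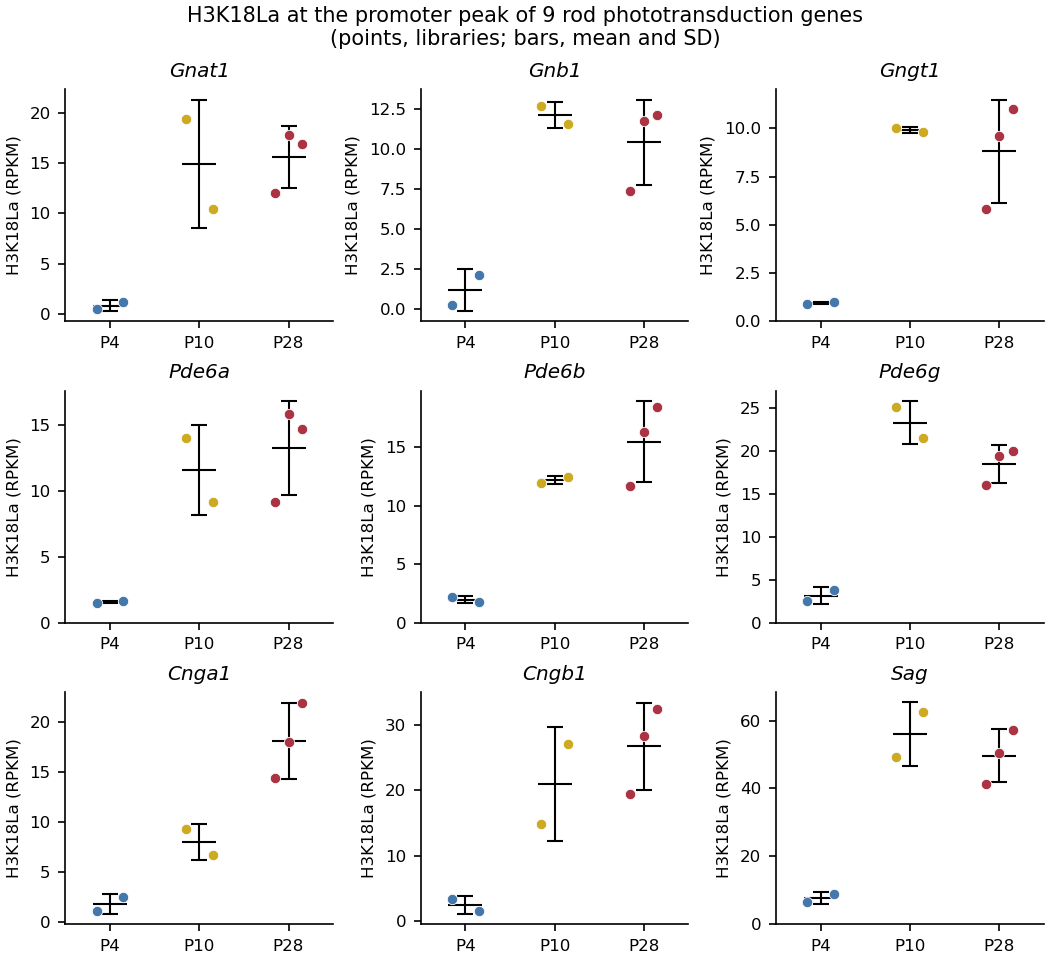
H3K18La level in RPKM (vertical axis, linear) at the promoter peak of each of the 9 genes by age (horizontal axis); points are libraries, horizontal bars are means and whiskers are SDs (n = 2, 2 and 3). In every panel both P4 points lie below all P10 and P28 points, and in the Cnga1 panel alone the 3 P28 points all lie above both P10 points.

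These counts depended on the scaling and the depth. Scaled to reads in peaks limma called 5 of 9 in each comparison with P4, beside 3.15% (P10) and 8.24% (P28) of all promoter peaks called higher. With quantile normalization it called 2 of 9 from P4 to P10, beside 3.01%. With every library thinned to the smallest it called 0 of 9 from P4 to P10, beside 1.48%, and 1 of 9 from P4 to P28, beside 5.61%. The thinned median change of the 9 was 3.18 from P4 to P10 and 3.02 from P4 to P28, against 2.56 and 2.5 before thinning. Over all promoter peaks it was 0.70 and 1.37, against 0.56 and 1.36. Thinning a P4 peak to few or no reads can raise its change on this scale, so these medians do not check the size of the change. P4 had 2 libraries, and with 1 of them left out the spread of P4 is taken from the other ages. Fewer of the 9 passed the threshold in both comparisons then, and the share of all promoter peaks called is not given for these fits. The median change of the 9 from P4 to P28 was 2.39 without P4 replicate 1 and 2.64 without P4 replicate 2. From P4 to P10 it was 2.32 and 2.53. The 9 changes from P4 stayed positive under the 16 alternatives run. Without P28 replicate 1, which leaves batch 1 only, limma called 9 of 9 from P4 to P28, beside 18.6% of all promoter peaks, with a median of 2.68. From P4 to P10 it called 8 of 9, beside 7.68%. P28 replicate 1 had the lowest of the 3 P28 levels at each of the 9 promoter peaks. It was also lowest in the pooled level of all promoter peaks of protein-coding genes, at 6.82 RPKM beside 7.43 and 8.51. The part of the batch in this was not tested.

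Transducin is made of an alpha subunit that binds GTP (Gnat1 in rods), a beta subunit (Gnb1, which other cells use too) and a gamma subunit (Gngt1 in rods). The Gnat1 promoter peak (ENSMUSG00000034837, chr9:107679099-107681141, GRCm38) had 0.445 and 1.17 RPKM at P4, from 6 reads, 19.4 and 10.4 at P10, and 12.1, 17.8 and 16.9 at P28. Both P4 libraries lay below all others, and the P10 and P28 libraries overlapped. This was the lowest P4 level of the 9, 0.807 ± 0.512 RPKM (SD, n = 2), and the largest change of the 9 in each step from P4. limma gave 3.11 ± 0.40 (SE) from P4 to P10 (adjusted p = 0.00091) and 3.21 ± 0.36 from P4 to P28 (adjusted p = 0.00026). The pooled reads gave a ratio of 22.2 between P28 and P4 with a 95% counting interval of 10.1 to 60.5. From P10 to P28 the change was 0.10 (limma, adjusted p = 0.863), and it was negative when libraries were scaled to reads in peaks or median centred.

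Of the 2 promoter peaks of Gnb1, the one used lies 31.2 kb inside the gene at an internal start (ENSMUSG00000029064, chr4:155521715-155523419) and the other covers the RefSeq start shown above (chr4:155491104-155491817). At the internal start Gnb1 had 0.266 and 2.10 RPKM at P4, 12.7 and 11.6 at P10, and 7.39, 11.8 and 12.2 at P28. The P10 and P28 libraries overlapped, and both ages lay above P4. limma gave 2.73 ± 0.46 (SE) from P4 to P10 (adjusted p = 0.00239) and 2.5 ± 0.42 from P4 to P28 (adjusted p = 0.00146). At the CpG-rich RefSeq start Gnb1 had 1.91 and 3.34 RPKM at P4, 5.06 and 11 at P10, and 11.4, 10.1 and 10.4 at P28. P10 replicate 1 was low here, and this peak changed by 1.71 from P4 to P28 (limma, adjusted p = 0.0052) and by 1.26 from P4 to P10 (limma, adjusted p = 0.0337), which is not a call at 0.01. With this peak taken for Gnb1, 8 of the 9 promoter peaks were called from P4 to P10, a choice made after seeing the data.

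Gngt1 had 1 peak, a broad one of 3060 bases that runs over its start (ENSMUSG00000029663, chr6:3991251-3994310) with the nearest start of another gene, that of Tfpi2, 2332 bases away. It had 0.891 and 0.975 RPKM at P4, 10.03 and 9.79 at P10, and 5.83, 9.60 and 11 at P28. The pair of P10 libraries lay close together, within the range of the P28 libraries and far above P4. limma gave 2.5 ± 0.38 (SE) from P4 to P10 (adjusted p = 0.00158) and 2.30 ± 0.34 from P4 to P28 (adjusted p = 0.00086).

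Phosphodiesterase 6 of rods joins the catalytic subunits Pde6a and Pde6b with the inhibitory Pde6g. The Pde6a promoter peak (ENSMUSG00000024575, chr18:61219752-61221556) had 1.51 and 1.65 RPKM at P4, 14.0 and 9.17 at P10, and 9.16, 15.8 and 14.7 at P28. The Pde6b promoter peak (ENSMUSG00000029491, chr5:108387770-108390491) had 2.17 and 1.75 RPKM at P4, 11.9 and 12.5 at P10, and 11.7, 16.3 and 18.5 at P28. For both catalytic subunits the P10 and P28 libraries overlapped and stood above P4 without overlap. From P4 to P10 limma gave 2.26 ± 0.37 (SE) for Pde6a (adjusted p = 0.00216) and 2.16 ± 0.33 for Pde6b (adjusted p = 0.00159). From P4 to P28 limma gave 2.43 ± 0.34 for Pde6a (adjusted p = 0.00062) and 2.46 ± 0.30 for Pde6b (adjusted p = 0.00034). The inhibitory subunit differed in that its P10 level was the higher one. The Pde6g promoter peak (ENSMUSG00000025386, chr11:120451950-120453963) had 2.48 and 3.85 RPKM at P4, 25.1 and 21.5 at P10, and 16, 19.4 and 20.1 at P28. Both P10 libraries lay above all 3 P28 libraries, but the change of -0.32 ± 0.28 (SE) from P10 to P28 was not called (limma, adjusted p = 0.44). Pde6g changed by 2.56 from P4 to P10 (limma, adjusted p = 0.0007) and by 2.24 from P4 to P28 (limma, adjusted p = 0.00036), the smallest change of the 9 in that comparison.

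The cyclic GMP-gated channel of rods has Cnga1 as its pore-forming subunit and Cngb1 as its modulating one. The Cnga1 promoter peak (ENSMUSG00000067220, chr5:72643456-72644622) had 1.17 and 2.56 RPKM at P4, 9.28 and 6.76 at P10, and 14.4, 18 and 21.9 at P28. The 3 ages did not overlap and lay in order of age, and P10 reached 44.3% of the P28 mean, the lowest share of the 9. limma gave 1.69 ± 0.37 (SE) from P4 to P10 (adjusted p = 0.00713), 2.76 ± 0.34 from P4 to P28 (adjusted p = 0.00035) and 1.077 ± 0.34 from P10 to P28 (adjusted p = 0.0605). The P10 values of Cnga1 rest on 6 and 10 reads, and its call from P4 to P10 was lost in 12 of 16 alternatives while its P4 to P28 call was lost in 1. The pooled reads gave a ratio of 2.43 between P28 and P10 with a 95% counting interval of 1.49 to 4.29.

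The Cngb1 promoter peak (ENSMUSG00000031789, chr8:95306110-95307327) had 3.36 and 1.47 RPKM at P4, 14.8 and 27.2 at P10, and 19.4, 28.4 and 32.5 at P28. P10 replicate 1 was the lowest value after P4, from 10 reads, and P10 replicate 2 lay inside the P28 range. limma gave 2.69 ± 0.41 (SE) from P4 to P10 (adjusted p = 0.00164) and 3.05 ± 0.37 from P4 to P28 (adjusted p = 0.00035). A further Cngb1 peak over an internal start 25 kb into the gene (chr8:95281321-95281845) took another course. It had 1.73 and 3.41 RPKM at P4, 10.3 and 12.0 at P10, and 2.00, 2.34 and 4.28 at P28. Only the P10 libraries were high, with no overlap with either other age, although they rest on 3 and 8 reads. limma called the rise from P4 to P10, 1.81 (adjusted p = 0.0099), and gave -1.69 from P10 to P28 (adjusted p = 0.0251), which missed the threshold of 0.01. The change from P4 to P28 was 0.11 (limma, adjusted p = 0.83). Its direction turned under several other settings, to -1.05 scaled to reads in peaks (limma, adjusted p = 0.0364), -0.72 with quantile normalization and -1.57 thinned.

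Sag, the rod arrestin, had the highest level of the 9 at every age. Its promoter peak (ENSMUSG00000056055, chr1:87802869-87804077) had 6.39 and 8.88 RPKM at P4, 49.3 and 62.6 at P10, and 41.4, 50.4 and 57.3 at P28. The P10 and P28 libraries overlapped. limma gave 2.73 ± 0.29 (SE) from P4 to P10 (adjusted p = 0.0005) and 2.56 ± 0.26 from P4 to P28 (adjusted p = 0.00018). Sag was already at a higher level than 99.44% of the 11686 promoter peaks at P4, and than 99.94% at P28. No other of the 9 promoter peaks was above 84.3% of promoter peaks at P4, and Gnat1 was above 20.1%. At P28 the 9 lay above 75.6% (Gngt1) to 99.94% of promoter peaks.

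In order of mean level at P28, Sag (49.7 ± 7.94 RPKM, SD, n = 3) was followed by Cngb1 (26.8 ± 6.70), Pde6g (18.5 ± 2.17), Cnga1 (18.1 ± 3.76), Gnat1 (15.6 ± 3.1), Pde6b (15.5 ± 3.48), Pde6a (13.2 ± 3.58), Gnb1 (10.4 ± 2.64) and Gngt1 (8.81 ± 2.68). RPKM is a mean over the length of a peak, and the 9 peaks run from 1167 bases (Cnga1) to 3060 (Gngt1), so the order also depends on width. Gngt1, last in this order, had 741 reads at P28, against 553 in Cnga1. Only the step from Cngb1 to Sag exceeded the spread of its neighbours, and from Cngb1 down each gene overlapped the next. At P10 the order was Sag (55.9 ± 9.42 RPKM, SD, n = 2), Pde6g (23.3 ± 2.52), Cngb1 (21 ± 8.74), Gnat1 (14.9 ± 6.38), Pde6b (12.2 ± 0.364), Gnb1 (12.1 ± 0.811), Pde6a (11.6 ± 3.42), Gngt1 (9.91 ± 0.170) and Cnga1 (8.02 ± 1.79). At P10 only Sag and Cnga1 stood clear of the neighbour in this order, and each of the other neighbouring pairs overlapped. Cnga1 was thus last at P10 and the fourth at P28.

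Set against its own P28 mean, the P10 mean was 126% in Pde6g, 116% in Gnb1 at the internal start, 112.5% in Gngt1 and in Sag, 95.7% in Gnat1, 87.5% in Pde6a, 78.8% in Pde6b, 78.5% in Cngb1 and 44.3% in Cnga1. At the RefSeq start of Gnb1 it was 75.8%, with 47.6% and 104% in the P10 libraries. The median of the 9 was 95.7%, and the median over all 11686 promoter peaks was 55.6%. The changes from P10 to P28 of 8 of the 9 lay above only 8.29% (Pde6g) to 30.85% (Cngb1) of promoter peaks, while that of Cnga1 lay above 67.85%. From P4 to P10 the change of every gene lay above at least 87.38% of all promoter peaks, and that of Gnat1 above 99.51%.

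**Figure D2:**
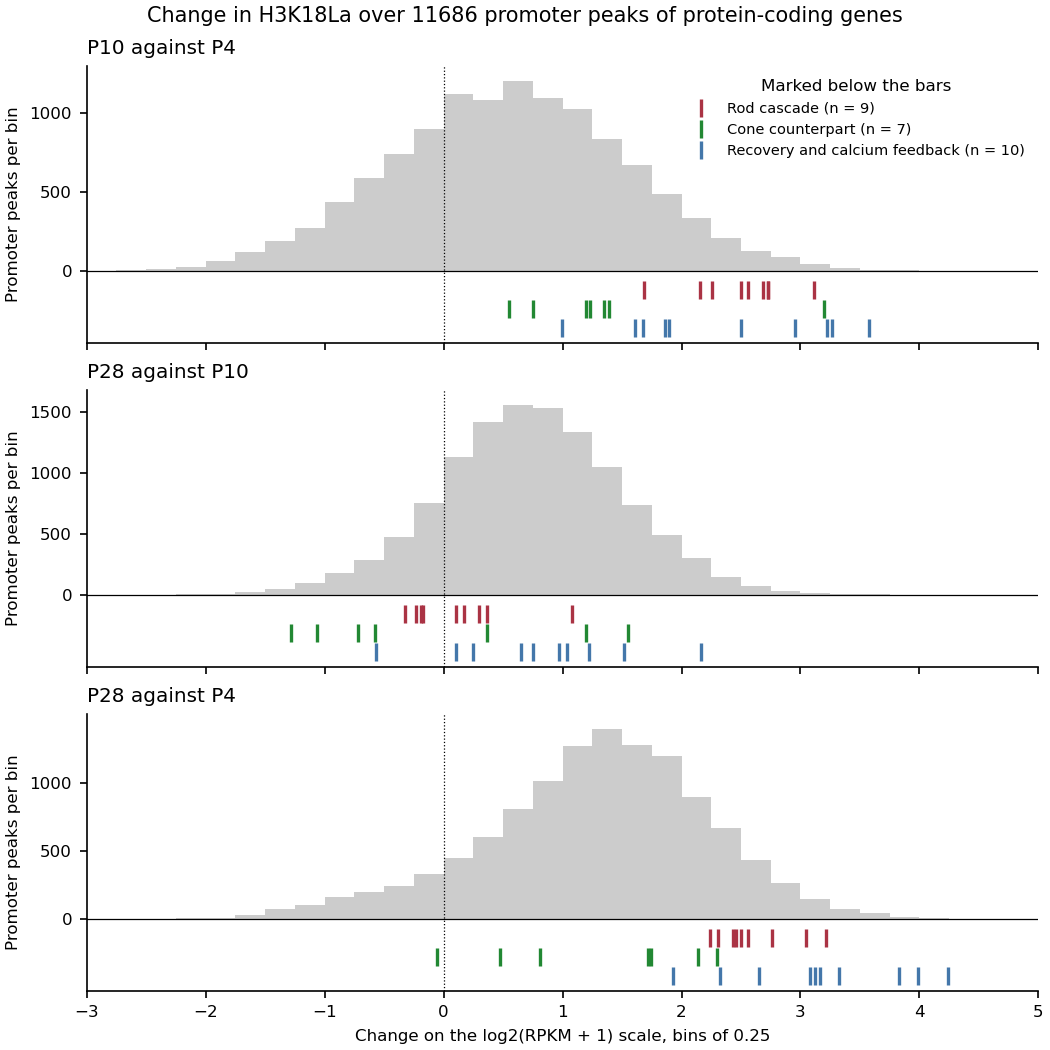
Number of promoter peaks of protein-coding genes (vertical axis, grey bars, 11686 peaks) by change on the log2(RPKM + 1) scale (horizontal axis, bins of 0.25) in 3 comparisons; ticks under the bars mark the rod cascade genes, their cone counterparts and the recovery and calcium feedback genes. The rod cascade ticks lie in the upper tail in both comparisons with P4 and, but for Cnga1 at 1.077, to the left of the tallest bars from P10 to P28.

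Beyond the promoter peaks used for each gene, 53 further peaks belonged to 6 of the genes: 12 at Gnb1, 10 at Pde6a, 9 at Pde6b, 6 at Cnga1, 7 at Cngb1 and 9 at Sag. They were 8 upstream peaks, 43 peaks in gene bodies and the further promoter peaks of Gnb1 and Cngb1. Gnat1, Gngt1 and Pde6g had no peak but the promoter. limma called 25 of the 53 higher and 0 lower from P4 to P28, beside 18.9% and 4.21% of all 108253 peaks. From P4 to P10 it called 14 higher and 1 lower, beside 11.4% and 7.34% of all peaks. From P10 to P28 it called 0 of 53, beside 0.00185% of all peaks, with 24 at an unadjusted p under 0.05, a level that 32.5% of all peaks passed, and 3 called by voom. At an adjusted p under 0.05 limma called 23 higher from P4 to P10, beside 21.4% of all peaks, and 12 higher from P10 to P28, beside 10.1%. Of the 53, 43 had 3 reads or fewer in each P4 library, and 9 had no read at P4 at all. A peak that entered the series through P28 alone is higher there by selection, so the counts of rises to P28 are partly built in. Over the 53 the P4 to P28 median was 1.89, or 1.69 with those 9 peaks set at the bound that 3 reads allow. The P4 to P28 count was 9 scaled to reads in peaks, where 24747 of all 108253 peaks were called, 31.9% of them higher. It was 6 thinned, where 5757 of all peaks were called, 61.5% of them higher. It was 15 with a pseudocount of 0.1 and 16 with the replicate block. The P4 to P10 counts became 5 higher and 3 lower scaled to reads in peaks, where 22164 of all peaks were called, 21.4% of them higher. Without P28 replicate 1 the P4 to P28 count was 18, where 14838 of all peaks were called, 84.2% of them higher. The P4 to P10 count was then 8, where 12986 of all peaks were called, 59.1% of them higher. Leaving out another P28 library or either P4 library also lowered both counts. Leaving out either P10 library raised the P10 to P28 count above 0. The share of all peaks called is not given for those fits, nor for the pseudocount and the block.

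Of the 8 peaks upstream of the genes, limma called 7 higher from P4 to P28, beside 18.9% of all peaks, with a median of 2.73 over the 8, and 5 from P4 to P10, beside 11.4%, with a median of 1.96. The step from P10 to P28 gave limma calls for 0 of the 8, with 4 at an unadjusted p under 0.05, beside 32.5% of all peaks, and voom called 0. Sag carried a pair of them, centred at -5.47 kb and -2.60 kb from its start. The farther one (chr1:87797612-87798805) had 1.52 and 1.5 RPKM at P4, 9.07 and 15.2 at P10, and 11, 16.1 and 18.4 at P28. The nearer one (chr1:87800707-87801459) had 1.21 and 3.17 RPKM at P4, 7.19 and 18.8 at P10, and 12.9, 19.1 and 18.3 at P28. At both Sag peaks the ages P10 and P28 overlapped and lay above P4, with limma changes from P4 to P28 of 2.66 (adjusted p = 0.0004) and 2.53 (adjusted p = 0.0016).

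The upstream peak of Pde6b at -1.63 kb (chr5:108386241-108387285) had 0.870 and 0.571 RPKM at P4, 5.18 and 12.8 at P10, and 11.5, 15.8 and 18.7 at P28. The range of its P28 levels overlapped that of the Pde6b promoter peak. Its change was 3.23 from P4 to P28 (limma, adjusted p = 0.0004). A more distant Pde6b peak at -8.09 kb (chr5:108379680-108380925) was the 1 upstream peak not called, with 2.92 and 1.92 RPKM at P4, 0 and 1.90 at P10, and 3.37, 6.36 and 6.93 at P28. The upstream peak of Pde6a, centred at -2.95 kb (chr18:61217122-61217617), had 0.916 and 2.41 RPKM at P4, 18.2 and 3.18 at P10, and 16.9, 25.5 and 32 at P28. Its P10 libraries rest on 5 and 2 reads and lie far apart. At P28 it had 24.8 ± 7.58 RPKM (SD, n = 3), above the Pde6a promoter peak in every P28 library.

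Gnb1 had 3 upstream peaks, centred at -9.24, -7.88 and -5.98 kb. The middle one (chr4:155482893-155484074) had 0.384 and 1.51 RPKM at P4, 6.11 and 5.34 at P10, and 9.54, 12.9 and 14.3 at P28, so the 3 ages did not overlap. The nearest one (chr4:155484762-155485992) had no read at P4, 2.93 and 1.92 RPKM at P10, and 4.90, 8.74 and 10.5 at P28, at least 6.29-fold higher at P28 than 3 reads per library would have given at P4. Both were called from P4 to P28, with changes of 2.81 (limma, adjusted p = 0.0004) and 3.12 (limma, adjusted p = 0.0006). In intron 1 of 11 a Gnb1 peak at 3.63 kb (chr4:155494744-155495241) again had no read at P4, then 10.9 and 7.91 RPKM at P10, and 10.01, 15.3 and 20.8 at P28. Its change of 3.98 was the largest of the 62 peaks from P4 to P28 on the log2(RPKM + 1) scale (limma, adjusted p = 0.0001). With no read at P4 this rank depends on the pseudocount, and voom gave 4.88 here and 5.28 at the nearest upstream peak. The intron 1 peak was at least 4.86-fold higher at P28 than 3 reads would have given. A Gnb1 peak in intron 5 (chr4:155537200-155538696) had no read and 0.399 RPKM at P4, 2.41 and 3.69 at P10, and 8.59, 12.9 and 14.0 at P28, and its change of 1.65 from P10 to P28 was not called (limma, adjusted p = 0.0253).

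**Figure D3:**
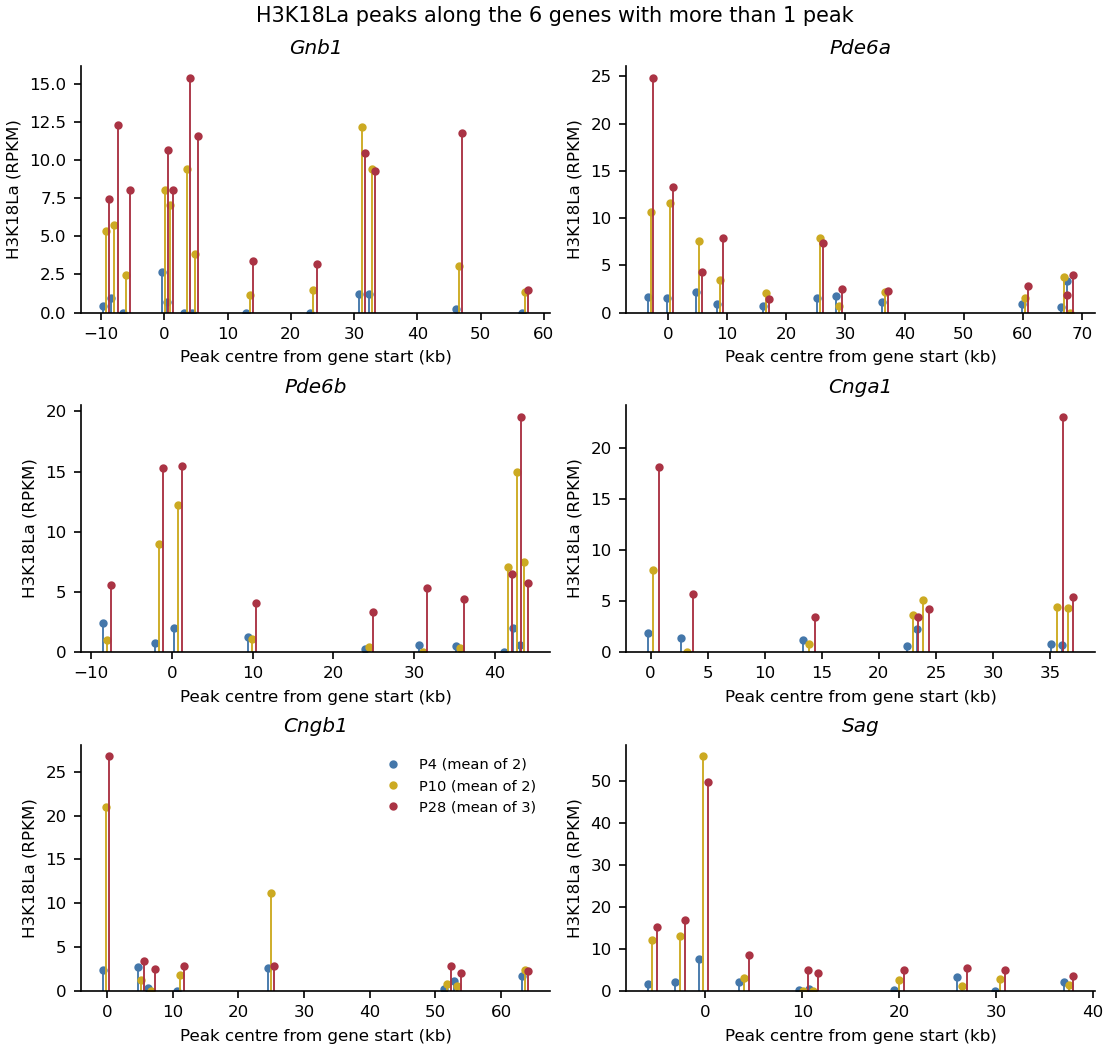
Mean H3K18La level in RPKM (vertical axis) of every peak of the 6 genes with more than 1 peak, by the distance of the peak centre from the annotated gene start in kb in the direction of transcription (horizontal axis); the P4 and P28 lines are drawn 0.5 kb to either side of the P10 line and means are over 2, 2 and 3 libraries. P10 and P28 lines of like height stand at most starts, while many P28 lines inside the genes have a shorter P10 line or none, and at the internal start of Cngb1 the P10 line is the tallest.

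Inside the genes lay 43 peaks, and their median change from P10 to P28 was 1.12, or 0.50 with the 6 that had no read at P10 at their bound. limma called 17 of the 43 higher from P4 to P28, beside 18.9% of all peaks, and 8 higher and 1 lower from P4 to P10, beside 11.4% and 7.34%. Of the 43, 37 had 3 reads or fewer in each P4 library, and 30 had 3 or fewer in each P10 library. Those that entered the series through P28 alone are higher at P28 by selection. The share over all peaks does not remove this, since it includes peaks called at the other ages. From P10 to P28 it called 0, with 19 higher and 0 lower at an unadjusted p under 0.05, beside 32.5% of all peaks in either direction, and voom called 2. In Cnga1 a peak in intron 8 of 8 (chr5:72608209-72609116) had 1.5 and 0 RPKM at P4, 7.95 and 0.868 at P10, and 16.8, 19.8 and 32.5 at P28. All P28 libraries lay above the others, its P28 level of 23.02 ± 8.37 RPKM (SD, n = 3) overlapped that of the Cnga1 promoter, and the change from P4 to P28 was 3.87 (limma, adjusted p = 0.0014).

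Of the 43 gene-body peaks, 6 had no read in either P10 library and had reads in all 3 P28 libraries, which is 14% of them and held for 11.3% of all peaks. With no read at P10, such peaks entered the series through another age. In Sag these were a peak in intron 4 of 15 (chr1:87813388-87814194), which had 5.20, 5.64 and 4.28 RPKM at P28, and a peak in exon 5 of 16 (chr1:87814494-87815144), which had 3.63, 5.38 and 3.98. At P4 each had 1 read, so both were near or at 0 there too, and 3 reads in each P10 library would have been a mean of 4.82 and 5.98 RPKM, near or above their P28 levels. limma gave 2.59 (adjusted p = 0.0113) and 2.40 (adjusted p = 0.0139) from P10 to P28, and called both from P4 to P28. In Cnga1 a peak in intron 1 of 8 (chr5:72640888-72641272) had 4.09, 6.07 and 6.73 RPKM at P28. The others were in exon 4 of Pde6b, in exon 5 of 13 of a Cngb1 transcript and at the 3′ end of Pde6a. The Pde6a peak (chr18:61288172-61288552) was the 1 lower call from P4 to P10, with 3.58 and 3.13 RPKM at P4 from 5 reads and 4.82, 4.36 and 2.72 at P28 (limma, -2.12, adjusted p = 0.0069). At this width 3 reads in each P10 library would have been a mean of 10.2 RPKM, more than its level at P4 or P28, so a fall could not be told from a lack of depth.

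A peak at the 3′ end of Pde6b (chr5:108430739-108431597) had 0.529 and 3.47 RPKM at P4, 18.9 and 11 at P10, and 16.2, 19.7 and 22.7 at P28. The range of its P28 levels reached that of the Pde6b promoter peak, the levels of its P10 and P28 libraries overlapped, and limma gave 2.96 from P4 to P28 (adjusted p = 0.0009). The start of Atp5k, a subunit gene of mitochondrial ATP synthase, lies 2800 bases away. Within Pde6b the peaks in intron 3, exon 4 and exon 10 had 0 to 1.11 RPKM at P4 and 0 to 0.828 at P10, against 2.48 to 7.60 at P28. In these 3 Pde6b peaks every P28 library lay above every P10 library, which held for 32.2% of all peaks, with limma changes from P10 to P28 of 1.63 (adjusted p = 0.0441), 2.56 (adjusted p = 0.0183) and 2.05 (adjusted p = 0.0206), none past 0.01. The exon 4 peak had no read at P10, so its value depends on the pseudocount, and 3 reads in each P10 library would have been a mean of 4.09, 9.51 and 3.33 RPKM at the 3 peaks, beside P28 means of 3.30, 5.29 and 4.42.

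Summed over the 9 genes, the gene-body level was 0.177 and 0.179 of the promoter level in the P10 libraries, with 95% counting intervals of 0.129 to 0.242 and 0.145 to 0.220. At P4 this ratio was 0.492 (0.345 to 0.701) and 0.348 (0.234 to 0.514), and at P28 it was 0.351, 0.323 and 0.348. Both P10 libraries were thus below all P4 and P28 libraries. Leaving out each gene in turn gave 0.152 to 0.241 at P10, 0.295 to 0.595 at P4 and 0.280 to 0.419 at P28. Over all protein-coding genes the ratio was 0.821 and 0.969 at P10, above the 0.768 and 0.809 of P4 and the 0.630 to 0.717 of P28. A ratio within a library does not depend on how the library was scaled, and no test was made of it. It does depend on the ages at which the peaks were called, since gene-body peaks called at P28 alone add little at P10 or P4. Of the reads in all Sag peaks, 71.7% and 64.4% were in the promoter peak at P10, 50% and 56.3% at P4, and 51.6%, 50.8% and 52.2% at P28. The P10 shares of Sag rest on 33 of 46 and 96 of 149 reads, and their 95% exact binomial intervals of 56.5% to 84.0% and 56.2% to 72.1% just reach that of P28 replicate 1, 46.4% to 56.8%. In Gnb1 the shares were 32.4% (12 of 37 reads) and 30.5% (25 of 82) at P10 and 15.7% to 18.1% at P28, and the interval of P10 replicate 1, 18.01% to 49.79%, overlapped those of P28. The P4 shares of Gnb1, 10% (1 of 10 reads) and 37.5% (6 of 16), lay on either side of its P10 shares. For Pde6b and Cnga1 the P10 intervals overlapped those of P28. In Cngb1 the P10 shares of 62.5% and 72.4% lay on either side of the P28 shares, and in Pde6a the P10 share of replicate 2, 34.4%, lay within the P28 range of 30.4% to 35.6%.

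**Figure D4:**
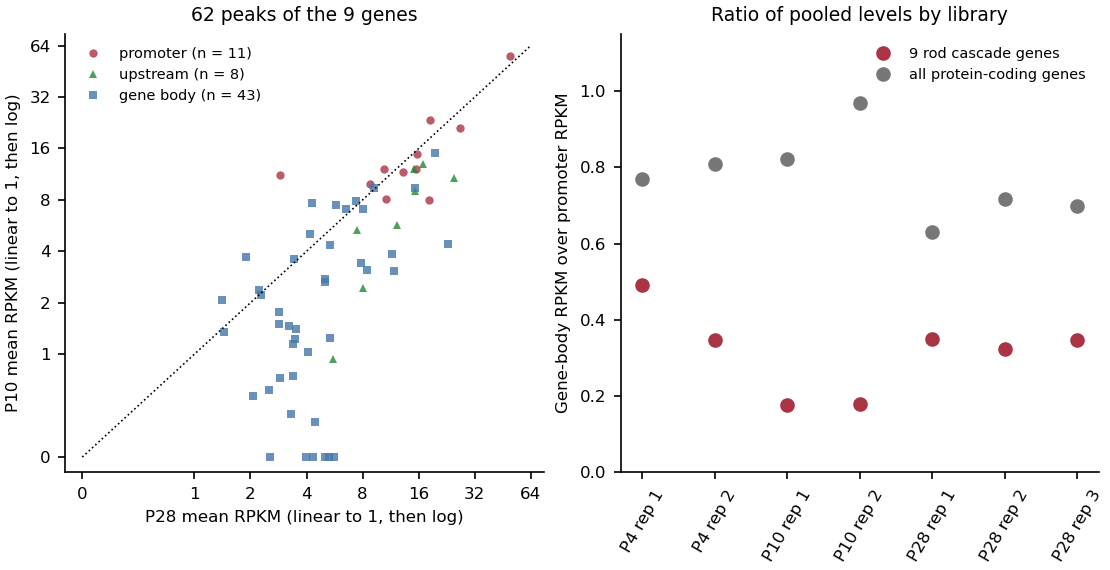
Left, mean P10 level against mean P28 level in RPKM of the 62 peaks (both axes linear to 1 and logarithmic beyond; the dotted line marks equal levels); right, gene-body over promoter level, each summed over peaks, in each of the 7 libraries. Most promoter peaks lie near the line while many gene-body peaks lie below it, and the 2 P10 libraries have the lowest ratios for the 9 genes (0.177 and 0.179) but the highest for all protein-coding genes.

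The cone proteins that do the same steps were compared as the nearest set. Of the 8 cone counterparts, 7 had a promoter peak: Gnat2, Gnb3, Gngt2, Pde6c, Cnga3, Cngb3 and Arr3. limma called 3 of the 7 higher from P4 to P28, beside 34.2% of all promoter peaks, with a median change of 1.72, and 1 of the 7 from P4 to P10, beside 12.7%. The 3 became 0 scaled to reads in peaks, beside 8.24% of all promoter peaks called higher, and 0 thinned, beside 5.61%. They became 1 with quantile normalization, beside 17.4%, and 1 with the replicate block. The 1 called from P4 to P10 was Gnb3, a beta subunit that cones share with other retinal cells. Gnb3 had 4.08 and 6.63 RPKM at P4, 50.1 and 63.0 at P10, and 23.4, 28.9 and 27.3 at P28. Cngb3, the cone partner of Cngb1, had 4.62 and 2.02 RPKM at P4, 7.34 and 10.1 at P10, and 1.42, 3.62 and 4.56 at P28, and its change of -0.06 from P4 to P28 was not called (limma, adjusted p = 0.929). Gnat2, Cnga3 and Gngt2 were not called either, with changes of 1.75, 0.48 and 0.81. For the catalytic subunits the order depended on the measure, since the log2(RPKM + 1) changes from P4 to P28 were 2.43 and 2.46 for Pde6a and Pde6b and 2.30 for Pde6c, while the ratios of the P28 to the P4 mean were 8.37, 7.89 and 9.78. The rod gene had the larger change on the log2(RPKM + 1) scale for Gnat1 over Gnat2 (3.21 and 1.75), Gngt1 over Gngt2 (2.30 and 0.81), Cnga1 over Cnga3 (2.76 and 0.48), Cngb1 over Cngb3 (3.05 and -0.06) and Sag over Arr3 (2.56 and 1.72). For Gnb1 and Gnb3 (2.14) the order depended on the Gnb1 peak, with 2.5 at the internal start and 1.71 at the RefSeq start. These differences between genes were not tested.

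The genes of recovery and calcium feedback restore the dark state: the pigment kinase Grk1 and its regulator Rcvrn, the GTPase accelerating Rgs9 with Gnb5, the cyclases Gucy2e and Gucy2f with their activators Guca1a and Guca1b, the exchanger Slc24a1 and phosducin, Pdc. limma called 10 of the 10 with a promoter peak higher from P4 to P28 and 7 of 10 from P4 to P10, beside 34.2% and 12.7% of all promoter peaks, with medians of 3.14 and 2.20 beside 1.36 and 0.56. Thinned, 5 of 10 were called from P4 to P28, beside 5.61% of all promoter peaks called higher. Their P10 mean reached a median of 53.9% of the P28 mean, against 95.7% in the rod cascade and 55.6% over all promoter peaks. In the cone counterparts it was 163.6% (25.9% to 273%), a higher median than in the rod cascade, and these differences between sets were not tested. The cone shares are imprecise, since Gnat2, Pde6c, Cnga3 and Arr3 had 7, 5, 9 and 9 reads over both P10 libraries. Guca1a had 0.818 and 2.69 RPKM at P4, 4.87 and 3.55 at P10, and 20.1, 20.97 and 26 at P28, so it was the slowest of the 10, at 18.9% of its P28 level at P10. Grk1 had 7.34 and 7.76 RPKM at P4, 50.5 and 44.4 at P10, and 29.0, 31.5 and 34.3 at P28, the highest at P10.

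The rod factors Nrl, Crx, Nr2e3 and Otx2, which mark photoreceptors, were called higher 4 of 4 in both comparisons with P4, beside 34.2% (P28) and 12.7% (P10) of all promoter peaks. Their median change from P10 to P28 was 0.11, but the 4 went both ways, from -0.94 in Nr2e3 to 0.95 in Otx2. In Nr2e3 every P28 library lay below both P10 libraries (limma, adjusted p = 0.0314, not a call at 0.01). Nrl, which specifies rods, had 4.63 and 2.76 RPKM at P4, 16.7 and 23.4 at P10, and 15.3, 18.7 and 22.4 at P28. Promoter peaks of bipolar (4 genes), ganglion (3) and progenitor (3) markers were called in 0 cases from P4 to P28, with 2, 2 and 2 at an unadjusted p under 0.05, beside 66.8% of all promoter peaks, and 1, 1 and 1 called by voom. The pairs were higher at P28 in bipolar and progenitor markers, and in ganglion markers Thy1 was higher (1.18) and Pou4f1 lower (-1.23). Of the Mueller glia markers limma called 1 of 4 from P4 to P28, Glul, beside the same 34.2%. The retinal pigment epithelium had 1 marker with a promoter peak, Best1, at 1.37 and 1.20 RPKM at P4 and 2.63 to 4.34 at P28, and Rpe65, Tyr, Ttr and Pmel had none. The part of changing cell numbers in the results was not tested.

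By the root mean square difference in log2(RPKM + 1) over the 7 libraries from the median profile of the 9 promoter peaks, the nearest of 11677 other promoter peaks were Ccdc126 (0.149), Slc16a1 (0.190), Ppargc1b (0.197), Calm3 (0.208) and Ablim1 (0.209). Slc16a1 encodes the monocarboxylate transporter MCT1, Ppargc1b a transcriptional coactivator, Calm3 a calmodulin and Ablim1 an actin-binding protein. Ccdc126 had 1.42 and 1.87 RPKM at P4, 12.45 and 14.3 at P10, and 13.7, 18.03 and 20.1 at P28. Among the 9 themselves Pde6b (0.163) and Pde6a (0.223) lay nearest the median profile and Sag (1.77) farthest. The measure weighs level and time course together and says nothing of shared function.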

How the data were processed

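The 7 CUT&Tag libraries comprised 2 of P4, 2 of P10 and 3 of P28 retina. The authors aligned the reads to GRCm38, called peaks with MACS, annotated them with ChIPseeker 1.34.1 on Ensembl 102, normalised with edgeR 3.40.2 on csaw windows of 10000 bases, and deposited RPKM for 108253 peaks. A second deposited table holds their fold changes, p-values and age means and was not used. RPKM is not a count, so the count model of the methods was replaced by limma 3.58.1 (R 4.3.3) on log2(RPKM + 1), fitted to all 7 libraries and all peaks, with Benjamini-Hochberg adjustment and a threshold of 0.01. Whole reads were recovered for 100% of the values in each library (tolerance 0.01 reads), and voom on those reads was an alternative. Gene starts came from GENCODE M21, and promoter sequences from RefSeq. Tables were made with Python 3.11.15, pandas 2.3.3, numpy 2.4.6 and matplotlib 3.10.9. The fit was tested on simulated data. The genes, the gene lists and the markers were chosen with earlier results of these data known. The text names all 9 genes with their peaks, the listed genes with a promoter peak, and the 5 other promoter peaks nearest the median profile; among the further peaks of the 9, those given with values were picked after their values were seen. Alternatives were other pseudocounts, scalings and filters, thinning, voom, the replicate number as a block, and each library left out.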

Additional observations from a re-analysis of the deposited data

How the results depend on the processing

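The P4 to P28 and P4 to P10 changes of the 9 promoter peaks were positive in all 16 alternatives, while the number past the threshold moved. Scaled to reads in peaks, limma called 5 of the 9 from P4 to P28 and 5 from P4 to P10, beside 8.24% and 3.15% of all promoter peaks called higher. Of the other 53 peaks it called 9 and 8, the 8 being 5 higher and 3 lower against 14 and 1 as deposited. Thinned to the smallest library, it called 1 and 0 of the 9, beside 5.61% and 1.48% of all promoter peaks called higher. It also called 6 and 1 of the 53, and from P4 to P28 it called 0 cone counterparts and 5 recovery genes. Quantile normalization gave 2 of the 9, beside 3.01% of all promoter peaks, and 6 of the 53 from P4 to P10. From P4 to P28 it gave 1 cone counterpart, beside 17.4%, and scaling to reads in peaks gave 0 cone counterparts. A pseudocount of 0.1 gave 15 of the 53 from P4 to P28. An adjusted p under 0.05 gave 24 of the 53 from P4 to P10 and 13 from P10 to P28, where pseudocounts of 0.1 and 5, median centring and voom gave 2, 3, 2 and 3. The share of all peaks called is not given for the pseudocounts, voom or the replicate block, and the cause of these moves was not tested. The peak at the internal start of Cngb1, whose P4 to P28 change was 0.11 and not called, had changes of -1.05 scaled to reads in peaks, -0.41 with median centring, -0.72 with quantile normalization, -0.0556 with voom and -1.57 thinned. From P10 to P28, scaling to reads in peaks and median centring gave -0.0912 and -0.17 for Gnat1 and -0.0206 and -0.10 for Pde6a, thinning gave -0.0475 for Pde6a, and quantile normalization gave 0.27 for Sag.

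With each library left out in turn, calls from P4 to P28 ran from 6 to 9 of the 9, from 5 to 36 of the 53, from 1 to 4 cone counterparts and from 8 to 10 recovery genes. From P4 to P10 they ran from 2 to 9 and from 2 to 16, and from P10 to P28 they were 0 and from 0 to 16. The 16 came without P10 replicate 2, and of the 53 from P4 to P10, 2 were called without either P4 library and 8, 3 and 5 without P28 replicates 1, 2 and 3. From P10 to P28 the change then ran from -0.32 to 0.52 in Gnat1, -0.0528 to 0.94 at the RefSeq start of Gnb1, -0.36 to 0.0485 in Gngt1, -0.11 to 0.45 in Pde6a, -0.0526 to 0.78 in Cngb1 and -0.34 to 0.0001 in Sag, and from P4 to P28 from -0.23 to 0.46 at the internal start of Cngb1.

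The replicate numbers did not pair the samples, with correlations of same-numbered deviations from -0.001 to 0.047. With the replicate block limma called 9, 9 and 0 of the 9 in the 3 comparisons, 16, 12 and 0 of the 53, and 1 cone counterpart, and the internal start of Cngb1 changed by -0.13 from P4 to P28.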
